A study of Mus musculus with 12 samples.

Results

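Itgax, Ccr7 and Fscn1, 3 of the 11669 genes in the deposited table, were followed across 4 treatments of mouse immune cells. They were picked by gene symbol, as a group of genes used to mark dendritic cells, and all 3 were found. RNA was sequenced from 12 libraries, 3 each after NP-D@MP, NP-D@M, NP@M and PBS for 24 h. Per the labels the cells came from marrow and carry the cell line name TAMC, whereas the extraction text in the same records concerns retinas, and the labels do not settle this. The series concerns a nanodrug coated with engineered cancer cell membrane and aimed at cyclin-dependent kinases, tested with antibody therapy against PD-L1 in metastatic colon cancer. NP-D@MP and NP-D@M are the groups with D, NP@M and PBS those without it. What TAMC, NP, D, M and P stand for is not given in the labels, which also name no strain, allele, sex or age. Nor do they say whether the 3 libraries of a group came from separate cultures or animals, and p-values thus reflect the spread among these libraries, which may be technical.

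The 3 genes serve different steps in the life of a dendritic cell. Itgax encodes CD11c, an integrin alpha chain that pairs with the beta2 chain encoded by Itgb2 into a receptor for complement fragments and adhesion ligands; it is abundant on dendritic cells and is also made by many macrophages and some other myeloid cells. Ccr7 encodes the receptor for the chemokines CCL19 and CCL21, which draw maturing dendritic cells and naive lymphocytes to lymph nodes. Fscn1 encodes fascin, which bundles actin filaments in the long processes of mature dendritic cells and in the filopodia of other cells.

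On the coordinates of the table, which match GRCm38, Itgax (ENSMUSG00000030789) lies at chr7:128129547-128150657 on the plus strand, Ccr7 (ENSMUSG00000037944) at chr11:99144196-99155077 on the minus strand and Fscn1 (ENSMUSG00000029581) at chr5:142960343-142973185 on the plus strand. GENCODE M21 gives Itgax 4 transcripts with up to 30 exons, Ccr7 1 transcript with 3 exons and Fscn1 7 transcripts with up to 6 exons. Each is protein coding, and 0 other annotated genes overlap any of them. The start regions of Itgax and Fscn1 are shown because RNA of these genes went opposite ways as deposited. Each runs 5′ to 3′ from 120 bases before to 30 bases after the RefSeq start, read from RefSeq on GRCm38.p6, plus strand, at chr7:128129430-128129579 and chr5:142960235-142960384. Capitals mark matches to the motifs listed after them.
Itgax: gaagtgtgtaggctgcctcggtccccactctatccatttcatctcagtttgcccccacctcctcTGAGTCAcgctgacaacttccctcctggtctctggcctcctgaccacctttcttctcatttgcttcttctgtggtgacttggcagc
Fscn1: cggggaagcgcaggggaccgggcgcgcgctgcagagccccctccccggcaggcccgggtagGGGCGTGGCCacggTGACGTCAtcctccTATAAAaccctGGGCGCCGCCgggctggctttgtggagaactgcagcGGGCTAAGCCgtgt

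The 2 windows differed in make-up, with 54.7% G and C in Itgax and 72.0% in Fscn1. The Itgax window held 1 match to TGANTCA, the letters bound by AP-1 factors, beginning at position -56 from the start. The Fscn1 window held the cyclic AMP response element TGACGTCA at -45, a TATAAA box at -31, and 3 matches to GGG, any 5 bases and CC, letters found in many NF-kB sites, at -59, -20 and 17. These matches did not overlap one another, and GAGGAA, letters bound by PU.1, was not in either window. Both strands were searched, and the motifs were chosen after the sequences had been seen. Among 32851 RefSeq promoter windows of the same length, TGANTCA occurred in 4.16%, TGACGTCA in 1.44%, TATAAA in 7.16%, GGG, any 5 bases and CC in 35.3% and GAGGAA in 14.8%. A match describes letters only. The Ccr7 promoter is named only.

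The values are FPKM, reads scaled by gene length and library size, on the authors' own scale. Whole reads could be recovered from them, 14.4 M to 17.3 M per library over the genes of the table, but the deposited values had been divided by a library size of 7.84 M to 8.87 M with D and 31.6 M to 38.1 M without D. That scaling sets genes higher with D than a plain division by recovered reads, so each gene is given both as deposited and as FPKM on read totals, and bulk RNA cannot tell fewer cells of a type from less RNA per cell. NP@M replicate 2 and PBS replicate 3 stood apart: 9.11% and 9.31% of genes had the value 0 in them, and 2.65% to 2.96% did in the remaining libraries of NP@M and PBS. A fit without both is given where it matters.

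Flt3 and Zbtb46, genes that define dendritic cells, were close to absent. The 12 markers shared by dendritic cells, Itgax and Cst3 among them, were also summed per library. As deposited the sums were 3351 to 5566 FPKM in NP-D@MP, 3298 to 3888 in NP-D@M, 744 to 1009 in NP@M and 659 to 1065 in PBS. On read totals they were 1690 to 2605 FPKM in NP-D@MP, 1739 to 1965 in NP-D@M, 1723 to 2364 in NP@M and 1443 to 2492 in PBS. The groups thus overlapped on read totals. Flt3, the receptor for the growth factor that drives dendritic cell development, had 0 reads in NP-D@MP, which allows up to 0.0617 FPKM per library, and averaged 0.0183 FPKM in NP-D@M, 0.0795 in NP@M and 0.118 in PBS. Zbtb46, a transcription factor of conventional dendritic cells, averaged 0.0149 FPKM in NP-D@MP, 0.0361 in NP-D@M, 0.210 in NP@M and 0.177 in PBS. Both stayed below the level needed for testing, 1 FPKM in at least 3 libraries, as did Dpp4, Bcl11a, Btla, Kmo and Ccr2, so that 5 of the 12 markers shared by dendritic cells could be tested. The 16 macrophage markers summed to a high level in every library, with 62.7% to 79.8% of the sum from Lyz2, and 15 could be tested. Lyz2, which encodes lysozyme, averaged 29457 FPKM in NP-D@MP, 27281 in NP-D@M, 2158 in NP@M and 2335 in PBS, all as deposited. The 3 genes are therefore named by symbol in what follows, and their levels are not read as a number of dendritic cells.

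Itgax was among the abundant genes of every library, and its deposited level was several times higher with D than without. In NP-D@MP the 3 libraries had 601, 480.4 and 544 FPKM, and in NP-D@M 550.0, 712 and 641 FPKM. In NP@M they had 76.4, 98.2 and 77.0 FPKM, and in PBS 66.9, 73.8 and 87.5 FPKM. Every library with D lay far above every library without D, while NP-D@MP overlapped NP-D@M and NP@M overlapped PBS. The group means were 542 ± 60.4 in NP-D@MP, 634 ± 81.4 in NP-D@M, 83.9 ± 12.4 in NP@M and 76.1 ± 10.5 in PBS (FPKM, SD, n = 3 each). The highest mean, NP-D@M, and the next, NP-D@MP, did not differ beyond their spread, and neither did NP@M and PBS.

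On read totals the gap for Itgax shrank and nearly closed. The closest libraries, NP-D@MP replicate 2 and NP@M replicate 2, had 234 and 227 FPKM. Values not overlapping between NP-D@M and NP@M on read totals were found for 76.8% of tested genes, 12.9% with NP-D@M higher. The means became 264 ± 35.4 FPKM in NP-D@MP, 329 ± 21.3 in NP-D@M, 196 ± 27.3 in NP@M and 174 ± 17.5 in PBS (SD, n = 3 each). These rest on 64601 reads in NP-D@MP, 76973 in NP-D@M, 43481 in NP@M and 37858 in PBS. NP-D@M was 7.56-fold higher than NP@M as deposited and 1.68-fold higher on read totals. NP-D@MP was 7.12-fold higher than PBS as deposited and 1.52-fold higher on read totals. The direction was shared by the 2 scalings and the size was not.

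Ccr7 behaved in the opposite way and lost almost all of its reads with D. It had 3, 0 and 3 reads in the libraries of NP-D@MP, which give 0.173, 0 and 0.193 FPKM. The libraries of NP-D@M had 6, 6 and 13 reads, or 0.351, 0.387 and 0.741 FPKM. Without D the counts were far higher, with 668, 804 and 761 reads in NP@M and 715, 703 and 534 in PBS. These correspond to 9.56, 11.6 and 10.2 FPKM in NP@M and 10.5, 9.32 and 8.54 FPKM in PBS. All 6 libraries with D lay far below the 6 without D. A count of 0, as in NP-D@MP replicate 2, allows up to 3 reads, here 0.186 FPKM.

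The mean level of Ccr7 was 0.122 ± 0.106 FPKM in NP-D@MP, 0.493 ± 0.215 in NP-D@M, 10.4 ± 1.02 in NP@M and 9.46 ± 0.992 in PBS (SD, n = 3 each). NP-D@M was 21.2 times lower than NP@M as deposited and 94.8 times lower on read totals, because the deposited scaling raises the libraries with D. As a share of all recovered reads, pooled over the 3 libraries of a group, it was 94.0 times lower in NP-D@M than in NP@M (95% exact interval 63.5 to 146). The share in NP-D@MP was 365 times lower than in PBS (167 to 996). These intervals treat pooled reads as independent and leave out the spread among libraries. Limits set by a count of 0 describe counting error alone too, and copies of 1 molecule made by PCR are counted as separate reads. With each library left out in turn, computed after the data were seen, the shares were 82.4 to 128 times lower in NP-D@M than in NP@M. They were 245 to 489 times lower in NP-D@MP than in PBS.

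Fscn1 followed the same direction as Ccr7 at a lower level. NP-D@MP had 0, 0 and 4 reads, or 0, 0 and 0.169 FPKM, and NP-D@M had 9, 0 and 3 reads, or 0.346, 0 and 0.112 FPKM. NP@M had 189, 204 and 282 reads, or 1.78, 1.93 and 2.49 FPKM, and PBS had 189, 253 and 72 reads, or 1.82, 2.20 and 0.756 FPKM. The groups with D did not overlap the groups without D, although PBS replicate 3, one of the libraries that stood apart, came closest. Each of the 3 libraries at 0 allows up to 3 reads, which is 0.114 FPKM in NP-D@MP replicate 1, 0.122 in NP-D@MP replicate 2 and 0.127 in NP-D@M replicate 2.

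Means for Fscn1 were 0.0563 ± 0.0975 FPKM in NP-D@MP, 0.153 ± 0.176 in NP-D@M, 2.06 ± 0.376 in NP@M and 1.59 ± 0.750 in PBS (SD, n = 3 each). The share of reads was 59.2 times lower in NP-D@M than in NP@M (95% exact interval 33.7 to 115) and 144 times lower in NP-D@MP than in PBS (56.0 to 531). Single libraries decide these folds, as computed after the data were seen. Of the 12 reads in NP-D@M 9 came from replicate 1, without which the share was 161 times lower (54.8 to 782), and without replicate 2 it was 39.4 times lower. All 4 reads in NP-D@MP came from replicate 3, without which the share was at least 129 times lower than in PBS, taking 3 reads over the group as the limit of a count of 0, and without replicate 1 it was 95.02 times lower. Fscn1 reached the level needed for testing through the groups without D alone. Its levels with D lay near the limit of detection.

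**Figure D1:**
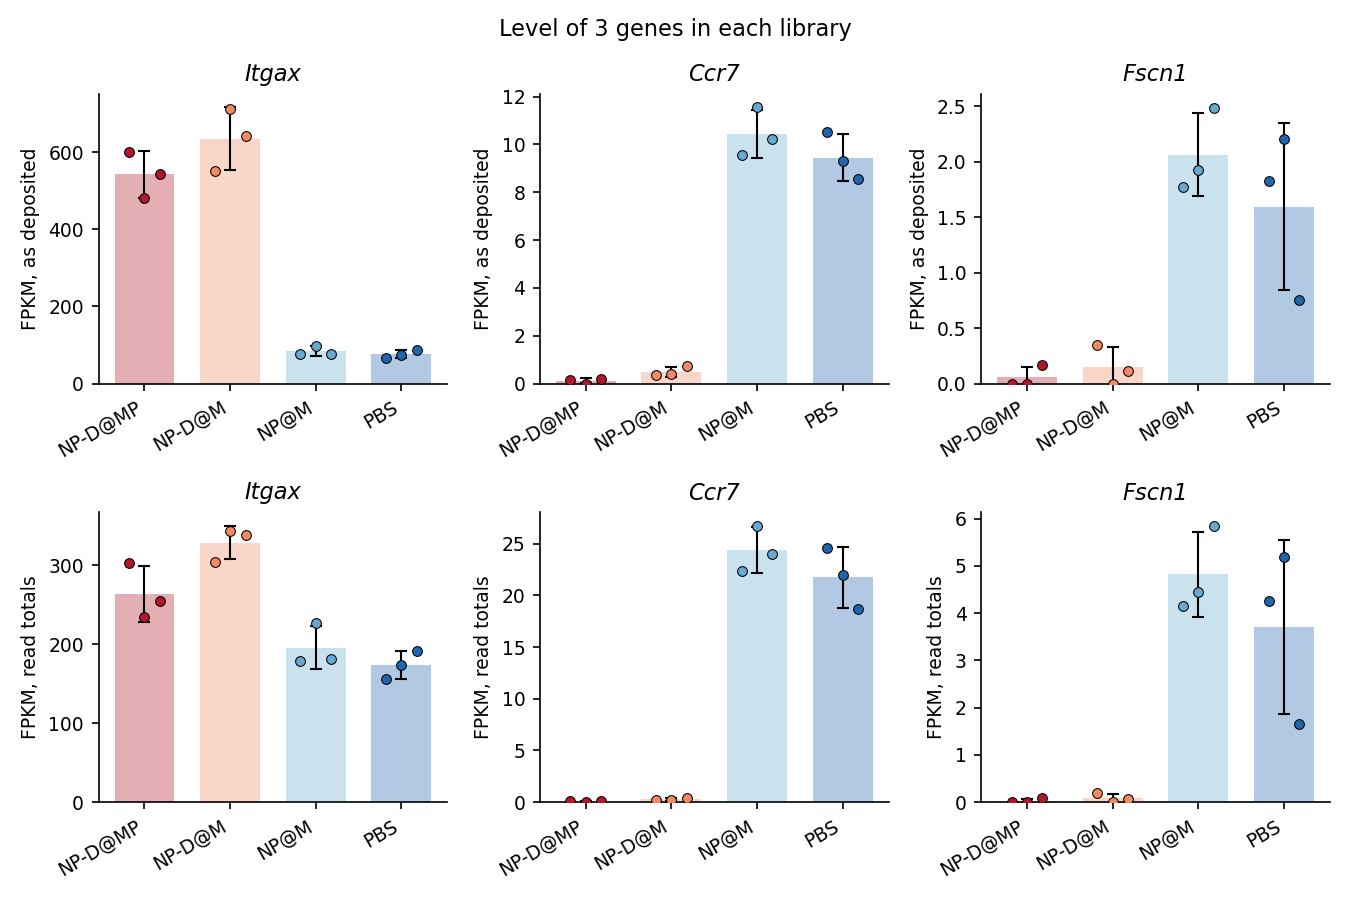
Level of Itgax, Ccr7 and Fscn1 (FPKM) in each library, as deposited in the upper row and on read totals in the lower row; points are libraries, bars are means and whiskers are SD (n = 3 each). Itgax is higher in the 2 groups with D under both scalings, by less on read totals, while Ccr7 and Fscn1 are near 0 with D.

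NP-D@M was first set against NP@M, groups whose names differ by D alone. By limma on log2(FPKM + 1) over all 8615 tested genes, with Benjamini-Hochberg adjustment, Itgax was higher in NP-D@M by 2.91 on the log2 scale (SE 0.19, adjusted p = 2.4e-07). Ccr7 was lower by limma, at -2.94 on the same scale (SE 0.16, adjusted p = 9.29e-08). Fscn1 was lower as well by limma, at -1.41 on the log2 scale (SE 0.21, adjusted p = 9.25e-05). The pseudocount of 1 understates the changes of Ccr7 and Fscn1. All 3 genes passed, but so did 91.2% of all tested genes in this comparison, 45.2% higher and 46.0% lower, so passing the test does not set these 3 genes apart. Values not overlapping between the groups, as in all 3 genes, were found for 93.0% of tested genes.

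The sizes of the changes were set beside those of all other genes. The median log2 fold change of all tested genes was 0.16 as deposited. Relative to that median Itgax was at 2.75, Ccr7 at -3.10 and Fscn1 at -1.57. The change of Itgax exceeded that of 93.1% of tested genes, that of Ccr7 exceeded only 2.01%, and that of Fscn1 exceeded 23.0%. Ccr7 was thus near the lower end of the tested genes, Itgax toward the upper end and Fscn1 in between on the lower side. Without NP@M replicate 2 and PBS replicate 3 the log2 fold changes were 3.02 for Itgax, -2.88 for Ccr7 and -1.44 for Fscn1. All 3 were called by limma in that fit, as were 7988 of the 8615 tested genes.

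On read totals the split of calls moved to 9.12% higher and 61.7% lower, 70.8% in all, and the median of all tested genes moved to -1.47. Itgax kept its call there, at 0.75 by limma (SE 0.18, adjusted p = 0.00237). Ccr7 changed by -4.34 and Fscn1 by -2.42. Relative to the median these are 2.22 for Itgax, -2.87 for Ccr7 and -0.95 for Fscn1. With quantile normalization, which gives all libraries the same distribution, 68.6% of genes were called and Itgax was not among them, at 0.32 on the log2 scale (adjusted p = 0.345 by limma). Ccr7 and Fscn1 kept their calls under quantile normalization, with -3.06 and -0.86 on the log2 scale.

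**Figure D2:**
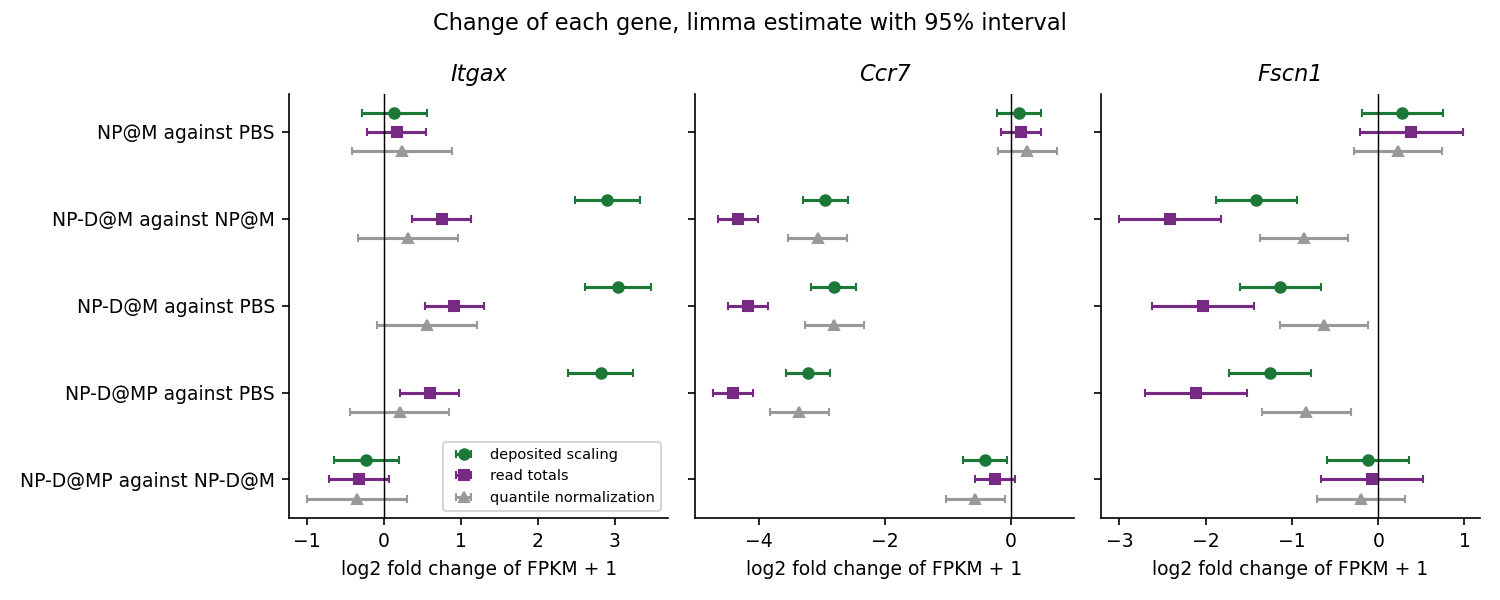
Change of each gene in 5 comparisons, as limma's log2 fold change of FPKM + 1 on the x axis with its 95% interval, under deposited scaling (circles), read totals (squares) and quantile normalization (triangles). In NP-D@M against NP@M Itgax has 2.91 as deposited and 0.32 with quantile normalization, while Ccr7 stays below -2.5 in the 3 comparisons of groups with and without D.

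Setting the groups with D against PBS gave similar values, and these comparisons share their PBS libraries. In NP-D@MP against PBS the limma log2 fold changes were 2.82 for Itgax, -3.22 for Ccr7 and -1.25 for Fscn1, with 91.5% of tested genes called. In NP-D@M against PBS they were 3.04 for Itgax, -2.81 for Ccr7 and -1.14 for Fscn1, with 90.4% called. All 6 changes passed at an adjusted p of 0.05. On read totals Itgax was at 0.60 in NP-D@MP against PBS (adjusted p = 0.00979 by limma) and at 0.92 in NP-D@M against PBS. On read totals 71.4% and 70.6% of tested genes were called in these 2 comparisons. With quantile normalization, where 68.3% and 67.8% were called, Itgax had 0.20 in NP-D@MP against PBS and 0.56 in NP-D@M against PBS, and neither was called.

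NP-D@MP was set against NP-D@M, groups whose names differ by P, and 0.0% of tested genes were called by limma and 428 of 8615 had an unadjusted p under 0.05. Itgax had a log2 fold change of -0.23 (95% interval -0.65 to 0.20), Ccr7 one of -0.41 (-0.76 to -0.05) and Fscn1 one of -0.12 (-0.59 to 0.35). The adjusted p of Ccr7 was 0.845 by limma, and those of Itgax and Fscn1 were 1. For Ccr7 the 2 groups did not overlap, with 6 reads in NP-D@MP and 25 in NP-D@M, and its share of reads was 4.35 times lower in NP-D@MP (95% exact interval 1.74 to 13.0). Groups that did not overlap occurred for 14.7% of tested genes here. Fscn1 had 4 reads in NP-D@MP and 12 in NP-D@M, a share 3.13 times lower whose interval, 0.95 to 13.3, includes no difference. That ratio was 1.15 without NP-D@M replicate 1 and 4.70 without NP-D@M replicate 2. The exact intervals of Ccr7 and Fscn1 describe counting error of pooled reads and leave out the spread among libraries. They thus do not decide whether the groups differ. Itgax overlapped as deposited; on read totals the 2 groups did not overlap, as for 14.9% of tested genes, and the mean of NP-D@MP was 0.803 times that of NP-D@M.

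The 2 groups without D were compared as NP@M against PBS, and 0.0116% of tested genes, 1 of 8615, was called by limma. Itgax had a log2 fold change of 0.14 (95% interval -0.29 to 0.56), Ccr7 one of 0.13 (-0.22 to 0.48) and Fscn1 one of 0.28 (-0.19 to 0.75), each with an adjusted p of 1. Libraries of the 2 groups overlapped for all 3 genes. The intervals leave room for a change of Fscn1 by up to 0.75 on this scale. Without PBS replicate 3 its log2 fold change was 0.02, and without NP@M replicate 2 as well it was 0.05.

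A ratio of 2 genes within a library depends less on scaling. The log2 ratio of Itgax to Ccr7, each as FPKM + 1, was 8.83 ± 0.192 over the 6 libraries with D and 2.88 ± 0.215 over the 6 without D (SD), a difference of 5.94. For Itgax to Fscn1 the means were 9.06 ± 0.291 with D and 4.86 ± 0.447 without D, a difference of 4.20. Each had an exact 2-sided permutation p of 0.00216 (n = 6 each), the smallest this design can give, and the same value after adjustment over the 3 pairs. Every library with D was already higher in Itgax and lower in Ccr7 and Fscn1 as deposited. That fixed this p in advance, and it adds no support. Values not overlapping between NP-D@M and NP@M were found for 93.0% of tested genes. Every library with D lay above every library without D in both ratios. From recovered reads with 0.5 added, free of any library factor, the differences were 8.27 and 7.61.

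The ratio of Ccr7 to Fscn1 depended on how it was taken. On FPKM + 1 their log2 ratio was 0.23 ± 0.274 with D and 1.98 ± 0.284 without D (SD, n = 6 each), a difference of -1.75 (adjusted exact permutation p = 0.00216). From recovered reads with 0.5 added it was 1.86 ± 1.81 with D and 2.52 ± 0.525 without D, a difference of -0.66 (adjusted exact permutation p = 0.394, n = 6 each). With D both genes are close to 0 reads, where the added constant sets most of the ratio.

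**Figure D3:**
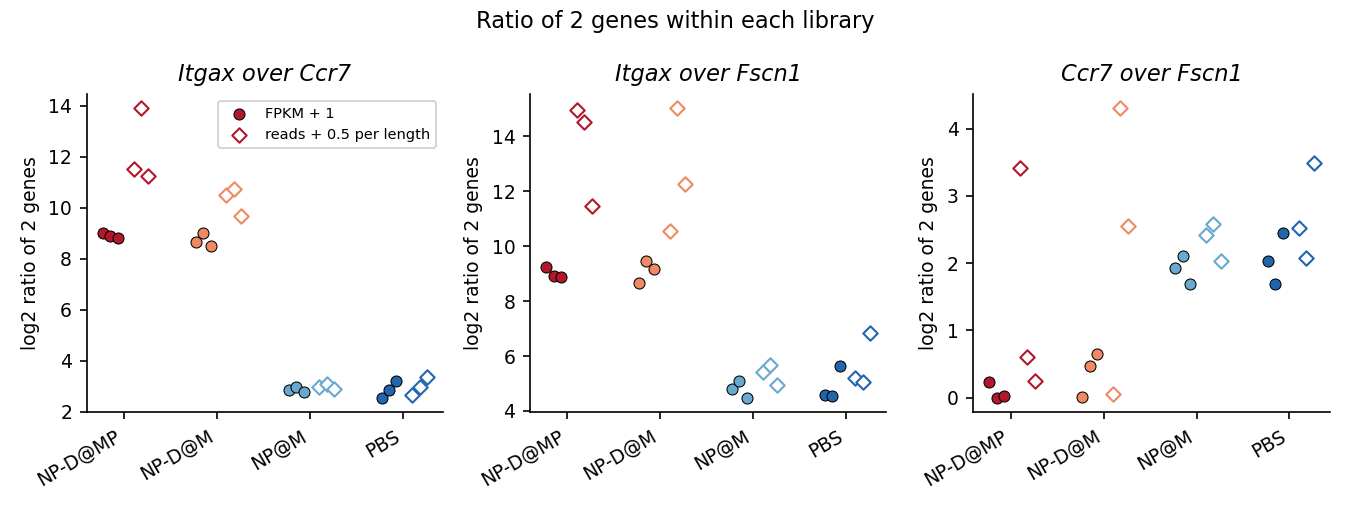
The log2 ratio of 2 genes within each library (y axis), from FPKM + 1 (filled circles) and from recovered reads with 0.5 added, per gene length (open diamonds), by group on the x axis. Both ratios with Itgax on top are higher in all libraries with D, while Ccr7 over Fscn1 overlaps between groups when taken from reads.

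The place of each gene in its own library does not depend on scaling at all. Itgax was higher than 97.6% to 98.4% of the table's genes in NP-D@MP, 98.2% to 98.6% in NP-D@M, 97.5% to 98.6% in NP@M and 96.9% to 98.3% in PBS. Its rank thus overlapped between groups, and it remained in the top few percent of the table throughout. Ccr7 exceeded 0% to 26.7% of the genes in NP-D@MP and 35.8% to 46.7% in NP-D@M, against 81.7% to 85.9% in NP@M and 80.7% to 82.5% in PBS. The rank of Fscn1 ran over 0% to 24.7% in NP-D@MP and 0% to 35.6% in NP-D@M, against 46.8% to 53.7% in NP@M and 31.4% to 50.8% in PBS. For Ccr7 the libraries with and without D were far apart in rank, and for Fscn1 they overlapped through PBS replicate 3.

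The genes whose pattern over the 12 libraries came closest to each of the 3 were found by Pearson correlation of log2(FPKM + 1), as a description with no test. Closest to Itgax were Tm9sf4 (r = 0.998), Chpt1 (0.998), Fkbp9, Ccni and Tspan7. Closest to Ccr7 were Edc3 (r = 0.996), Dtx4, Bhlhe40, Mgat2 and Itga5, and closest to Fscn1 were Kat8 (r = 0.989), Fam160a2, Mafg, Cdt1 and 4930438A08Rik. The 12 libraries fall into a set with D and a set without D, and an r over 0.95 was shared by 16.2% of tested genes with Itgax, 19.3% with Ccr7 and 5.15% with Fscn1. On read totals Chpt1 and Ccni were again among the 5 closest to Itgax, Edc3 and Bhlhe40 among those of Ccr7, and Fam160a2 among those of Fscn1. An r over 0.95 was shared there by 0.0813% of tested genes with Itgax, 44.9% with Ccr7 and 26.3% with Fscn1. Between the genes themselves r was 0.946 for Ccr7 and Fscn1, -0.976 for Itgax and Ccr7, and -0.942 for Itgax and Fscn1, as deposited over the same 12 libraries. On read totals these were 0.971, -0.859 and -0.857.

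Among genes related to Ccr7, other chemokine receptors were examined. Of 23 receptors listed, 15 were in the table and 8 could be tested in NP-D@M against NP@M, where 7 were lower and 1 higher by limma both as deposited and on read totals. Over all tested genes 46.0% were lower as deposited and 61.7% on read totals. The level needed for testing bears on this count, since 4 of the 8 receptors, Ccr7 among them, reached it through the groups without D only, as did 31.7% of all tested genes, and 1 reached it through the groups with D only (11.02% of all tested genes). Their median log2 fold change was -2.90 as deposited and -4.41 on read totals. Cxcr4, the receptor that retains cells in marrow, averaged 0.370 FPKM in NP-D@M and 26.6 FPKM in NP@M (log2 fold change -4.32). Ccr1, a receptor for inflammatory chemokines, averaged 7.36 FPKM in NP-D@M and 89.9 in NP@M (-3.44), and Cxcr2, the neutrophil receptor, 0.239 and 12.3 FPKM (-3.41). Cx3cr1, the fractalkine receptor, named after its values were seen, was the 1 that was higher, with a mean of 3.01 FPKM in NP-D@M and 0 reads in NP@M, which allow up to 0.0189 FPKM per library.

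Molecules that carry the signal of CCR7 and similar receptors made up a further list. Of 11 tested, 7 were higher and 4 lower in NP-D@M as deposited (median log2 fold change 1.60), beside 45.2% higher and 46.0% lower over all tested genes. On read totals 0 were higher and 6 lower (median -0.51), beside 9.12% higher and 61.7% lower. Of the 11 genes 1 reached the level needed for testing through the groups without D only. Gnai2, the inhibitory G protein chain that such receptors use, had a log2 fold change of 2.18 as deposited and 0.01 on read totals, and Rhoa, a small GTPase of cell motility, had 2.09 and -0.04. Gnb1, a G protein beta chain, had 1.65 and -0.50. Arrb1, which encodes an arrestin that uncouples receptors, was lower under both scalings, at -2.87 and -4.55. The ligand genes Ccl19 and Ccl21a were not analysed here, and Ptger4, a prostaglandin receptor linked to dendritic cell migration, was too low to test.

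Of the integrin genes related to Itgax, Itgb2 and Itgam rose with it as deposited and on read totals. Itgb2, which encodes the beta chain that pairs with CD11c, averaged 2194 ± 345 FPKM in NP-D@M and 346 ± 23.1 FPKM in NP@M (SD, n = 3 each), with limma log2 fold changes of 2.65 as deposited and 0.49 on read totals. Itgam, the alpha chain CD11b of macrophages and neutrophils, averaged 413 FPKM in NP-D@M and 48.1 FPKM in NP@M, with 3.11 and 0.97. These 2 genes and Itgax were called higher under both scalings. Itgal, the alpha chain of lymphocyte integrin LFA-1, and Icam1, a ligand of these integrins, were higher as deposited (1.10 and 1.00) and lower on read totals (-0.99 and -1.08). Cytip, which restrains beta2 integrin adhesion, was lower under both scalings (-2.81 and -4.33). Over the 11 tested genes of this list 6 were higher and 4 lower as deposited (median 1.00), beside 45.2% higher and 46.0% lower over all tested genes. On read totals 3 were higher and 7 lower (median -1.08), beside 9.12% higher and 61.7% lower. Of the 11 genes 2 reached the level needed for testing through the groups without D only, as did 31.7% of all tested genes.

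Actin-bundling and filopodia genes are the setting of Fscn1. Of 20 tested, 7 were higher and 10 lower in NP-D@M against NP@M as deposited (median log2 fold change -0.92), and 1 was higher and 15 were lower on read totals (median -1.89). Over all tested genes the shares were 45.2% higher and 46.0% lower as deposited and 9.12% higher and 61.7% lower on read totals, and the list was not tested against them. The level needed for testing bears on this count too. Of the 20 genes 7, Fscn1 among them, reached it through the groups without D only, as did 31.7% of all tested genes. Through the groups with D only 0 of the 20 reached it, beside 11.02% of all tested genes. Fmnl1, a formin that elongates actin filaments, and Marcks, which crosslinks actin at the membrane, were lower under both scalings, at -2.56 and -4.57 for Fmnl1 and -2.84 and -4.36 for Marcks. Cfl1, which encodes the filament-severing protein cofilin, was higher under both, at 2.86 and 0.70. Lcp1, the leukocyte bundling protein L-plastin, averaged 317 FPKM in NP-D@M and 132 in NP@M, higher as deposited at 1.26 and lower on read totals at -0.90. Actn4, an actin crosslinker, had 1.76 as deposited and -0.37 on read totals. Fascins encoded by Fscn2 and Fscn3 were not analysed here.

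Ccr7 and Fscn1 are usually read together as part of dendritic cell maturation. Of 22 tested in NP-D@M against NP@M, these 2 included, 10 were higher and 8 lower as deposited (median log2 fold change 0.67), whereas 2 were higher and 12 lower on read totals (median -1.11). Both counts are close to the shares over all tested genes given above. Of the 22 genes 3, Ccr7 and Fscn1 among them, reached the level needed for testing through the groups without D only. Through the groups with D only 2 reached it. Ccl22, a chemokine that attracts regulatory T cells, averaged 149 FPKM in NP-D@M and 9.63 FPKM in NP@M and was higher under both scalings, at 3.80 and 1.72. Ccl17 and Ccl5, chemokines for T cells, were higher as deposited at 3.55 and 3.44 and missed the threshold on read totals at 1.44 and 1.49. Relb, the NF-kB subunit of dendritic cell maturation, and Cd83, a surface marker of it, were lower under both scalings, at -1.92 and -3.59 for Relb and -1.16 and -2.82 for Cd83. Samsn1, which encodes a signalling adaptor of haematopoietic cells, was lower as well, at -2.63 and -3.79.

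Costimulatory genes depended on the scaling. Cd80 was called higher at 0.72 as deposited and lower at -1.27 on read totals. Cd40 was higher at 1.41 as deposited and at 0.33, not called, on read totals. Tnfrsf9, which encodes the costimulatory receptor 4-1BB, had 1.80 and -0.31, called as deposited only. Cd86 passed under neither scaling, with 1.00 (adjusted p = 0.0571 by limma) as deposited and -0.95 on read totals.

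Genes of the dendritic cell subsets also went both ways, as all tested genes did. Of all tested genes 45.2% were higher and 46.0% lower as deposited, and 9.12% and 61.7% on read totals. For all markers shared by dendritic cells, 4 of 5 tested were higher and 1 lower as deposited (median 2.91), and 2 were higher and 2 lower on read totals (median 0.75). Cst3, which encodes the protease inhibitor cystatin C, was higher under both scalings at 3.08 and 0.92. Csf2rb, the shared receptor chain for GM-CSF, was lower under both at -1.47 and -3.62. Among conventional type 1 markers 3 of 6 tested were higher and 3 lower as deposited (median -0.03), and 1 was higher and 3 were lower on read totals (median -0.93). Of the 6 type 1 markers 2 reached the level needed for testing through the groups without D only, and 1 through the groups with D only. Irf8, the transcription factor of that subset, averaged 0.665 FPKM in NP-D@M and 8.61 FPKM in NP@M (-2.51 and -3.95), and Id2, a partner inhibitor in its development, 2.68 and 43.7 FPKM (-3.62 and -5.43). Cadm1, an adhesion molecule on that subset, was higher at 3.17 and 1.30.

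In conventional type 2 markers 2 of 7 tested were higher and 4 lower under both scalings (medians -0.83 and -1.85). Over all tested genes 45.2% were higher and 46.0% lower as deposited, and 9.12% and 61.7% on read totals. Of the 7 type 2 markers 3 reached the level needed for testing through the groups without D only, and 1 through the groups with D only. Irf4, the transcription factor of that subset, averaged 0.121 FPKM in NP-D@M and 8.35 FPKM in NP@M (-3.01 and -4.21), and Sirpa, its surface receptor for CD47, had -2.47 and -4.58. The lectin genes Mgl2 and Clec10a, which macrophages also express, were higher at 4.34 and 2.19 and at 3.70 and 1.61. Of 5 plasmacytoid markers tested 3 were higher and 2 lower as deposited (median 2.80), and 2 were higher and 2 lower on read totals (median 0.91), beside the same all-gene shares. Through the groups without D only 1 of the 5 reached the level needed for testing. Irf7, a regulator of interferon genes, had 3.94 and 1.84, and Bst2, an interferon-induced surface protein, 3.70 and 1.56, while Runx2 was lower at -1.33 and -2.29.

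Class II presentation genes gave 5 higher and 1 lower of 7 tested as deposited (median 1.55), beside 45.2% higher and 46.0% lower over all tested genes. On read totals 2 were higher and 2 lower (median -0.24), beside 9.12% higher and 61.7% lower. Of the 7 genes 1 reached the level needed for testing through the groups without D only. The 2 that were higher under both were lysosomal enzymes, Ctss (cathepsin S, 3.72 and 1.55) and Ifi30 (a thiol reductase, 3.62 and 1.46). Cd74, the invariant chain, had 1.55 as deposited and -0.62, not called, on read totals. H2-Ab1, a class II chain, was at 0.93 as deposited (adjusted p = 0.0508 by limma, not called) and was called lower at -1.11 on read totals. Ciita, the master activator of class II genes, was too low to test, with means of 0.0242 FPKM in NP-D@M and 0.704 FPKM in NP@M.

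**Figure D4:**
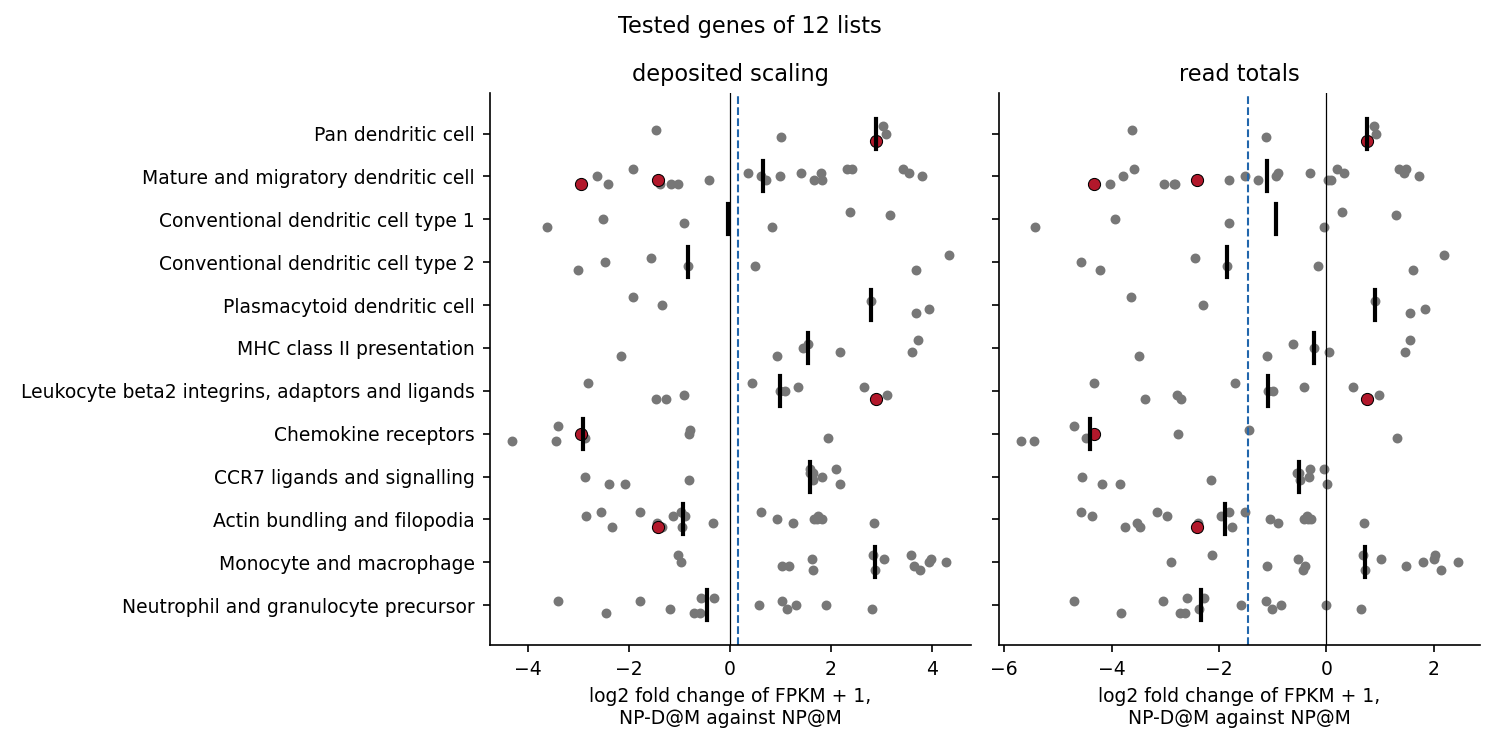
Log2 fold change of FPKM + 1 in NP-D@M against NP@M (x axis) for the tested genes of 12 lists (rows), as deposited on the left and on read totals on the right; red points are Itgax, Ccr7 and Fscn1, black bars are list medians and the dashed line is the median of all tested genes. The chemokine receptors have the lowest medians of the 12 lists, -2.90 and -4.41, with 1 of 8 genes higher under both scalings. Medians of the type 1, type 2, actin and neutrophil lists are also negative under both. All list medians are lower on read totals.

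Markers of macrophages were examined because many macrophages make Itgax. Of 15 tested, 13 were higher and 2 lower in NP-D@M against NP@M as deposited (median log2 fold change 2.88), and 6 were higher and 4 lower on read totals (median 0.71), beside the all-gene shares of 45.2% and 46.0% as deposited and 9.12% and 61.7% on read totals. Ms4a7, Cd68, Lyz2 and C1qb were higher under both scalings, at 4.29 and 2.45, 3.95 and 1.79, 3.65 and 1.48, and 3.59 and 2.02. These 4 were named by the rule on smallest adjusted p and do not stand for the list. On read totals 4 of the 15 were lower and 5 were not called. Of the 15, 1 reached the level needed for testing through the groups without D only. The summed level of all 16 macrophage markers on read totals was 18000.1 to 18345 FPKM in NP-D@MP and 16332 to 20049 in NP-D@M, against 6621 to 8176 in NP@M and 6804 to 9216 in PBS. Lyz2 made up 75.0% to 79.8% of the sum in NP-D@M and 66.1% to 67.7% in NP@M. Without Lyz2, a sum added after the data were seen, the ranges were 3675 to 4151 FPKM in NP-D@MP and 3808 to 4081 in NP-D@M, against 2139.6 to 2729.96 in NP@M and 2345 to 2537 in PBS. Libraries with D lay above those without D either way. On read totals NP-D@M did not overlap NP@M for 76.8% of single tested genes, 12.9% with NP-D@M higher. None of the 16 was at 0 in every library of a group. The part of macrophage content in the level of Itgax was not tested.

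Markers of neutrophils and their precursors moved less evenly. Of 14 tested, 5 were higher and 4 lower in NP-D@M against NP@M as deposited (median -0.44), and 0 were higher and 12 lower on read totals (median -2.33). Through the groups without D only 2 of the 14 reached the level needed for testing. Over all tested genes 45.2% were higher and 46.0% lower as deposited, and 9.12% and 61.7% on read totals. These shares also stand beside the counts of the other cell types below. The summed level of the neutrophil markers on read totals was 2639 to 4021 FPKM in NP-D@MP and 2958 to 4053 in NP-D@M, against 3726 to 5408 in NP@M and 5079 to 5716 in PBS, and the part of neutrophil content in the fall of Ccr7 and Fscn1 was not tested. Of 2 B cell markers tested 1 was higher as deposited, and 1 was lower on read totals. The 1 tested T and NK cell marker was higher under both scalings, but it reached the level needed for testing through the groups with D only. Of 3 mast cell markers 1 was lower as deposited and 3 were lower on read totals, and 2 stromal markers were higher as deposited and lower on read totals. Of the 3 mast cell markers 1 reached the level needed for testing through the groups without D only. Of 10 erythroid and 10 retina markers looked up, 0 were among the genes used here. For each of these lists 0 members were called in NP-D@MP against NP-D@M, the dendritic cell lists included, where limma called 0 of all genes and 428 had an unadjusted p under 0.05.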

How the data were processed

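RNA sequencing values of 12 libraries were used. Per the submitters' processing notes Bowtie 0.12.2 and the build mm8 were involved, with roles not given in the sources used here, and per the labels' protocols libraries were made from total RNA with a TruSeq kit. The deposited table holds FPKM values, a unit read from the values because the authors' header does not name it; value times gene length was a whole number of reads for 100% of values (tolerance 0.05), 14.4 M to 17.3 M per library. The authors' scaling between libraries is not given in the sources used here, nor how genes were picked for the table. Coordinates equalled GENCODE M21 on GRCm38 for 11213 of 11669 genes.

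Genes with at least 1 FPKM in at least 3 libraries (8615) were tested with limma 3.58.1 in R 4.3.3 on log2(FPKM + 1), with 4 group means over all 12 libraries, trend and robust options, 2-sided, Benjamini-Hochberg adjusted over all tested genes, called under 0.05. The procedure was tested on simulated data. Ratios of 2 genes were compared by exact permutation (scipy 1.17.1). Read totals divide recovered reads by their sum over the table. Alternatives were read totals, equal medians, quantile normalization, voom on recovered reads, no filter, a filter of 5, a pseudocount of 0.1, no trend, fits of the compared libraries alone and leaving out each library or both that stood apart; read totals without both, read shares of Ccr7 and Fscn1 with each library left out, and the macrophage sum without Lyz2 were added after the data were seen.

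The 3 genes and the gene lists were chosen with earlier results of these data known. Named are the 3 genes, up to 4 members per list with the smallest adjusted p in NP-D@M against NP@M, a fixed set of dendritic cell, integrin, chemokine and class II genes, and the 5 nearest genes by correlation; Cx3cr1, Il12b and the low dendritic cell markers Dpp4, Bcl11a, Btla and Kmo were named after their values were seen. Tests were not paired, since replicates were numbered by record order.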

Additional observations from a re-analysis of the deposited data

How the results depend on the processing

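Ccr7 and Fscn1 were called lower in all 3 comparisons of groups with and without D under every alternative that gave a value. Fscn1 had none with a filter of 5. Most tested genes were called in these comparisons too, 67.8% to 68.6% of them with quantile normalization, so keeping a call does not set these 2 genes apart. The log2 fold changes in NP-D@M against NP@M ran from -6.55 to -2.63 for Ccr7 and from -6.52 to -0.86 for Fscn1, with the extreme low values from voom. Itgax kept its calls except with quantile normalization, where it was at 0.32 for NP-D@M against NP@M, and against PBS at 0.20 for NP-D@MP and 0.56 for NP-D@M; the cause was not tested. The log2 ratio of Ccr7 to Fscn1 lost its call from recovered reads, at -0.66 (adjusted exact permutation p = 0.394, n = 6 each). Leaving out each library in turn kept Itgax between 2.82 and 3.02, Ccr7 between -3.06 and -2.88 and Fscn1 between -1.53 and -1.32 in NP-D@M against NP@M.

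The count of called genes in NP@M against PBS, 1, became 0 with equal medians, quantile normalization, voom, no filter, a filter of 5, a pseudocount of 0.1, no trend, the compared libraries alone and both libraries that stood apart left out, and was 0 to 1 with each library left out. With a filter of 5, under which fewer genes were tested, the called genes numbered 4422 for NP-D@M against NP@M, in place of 7855, and against PBS 4447 for NP-D@MP, in place of 7882, and 4388 for NP-D@M, in place of 7788. In NP-D@MP against NP-D@M the 0 called genes by limma (428 at an unadjusted p under 0.05) became 6 with equal medians, 1 with voom, 8 without a filter, 2 with a pseudocount of 0.1 and 0 to 4 with each library left out, 4 without NP-D@MP replicate 2. voom on recovered reads called 6025 genes in NP-D@M against NP@M. No paired analysis was possible because the libraries carry no replicate number that links groups. Depth limits Ccr7 and Fscn1 with D, where single reads decide the level and a difference between NP-D@MP and NP-D@M was not detectable for Fscn1.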

Other observations

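Among the genes of dendritic cell maturation, Il12b, which encodes a chain of the cytokines IL-12 and IL-23 and was named after its values were seen, averaged 0.546 ± 0.258 FPKM in NP-D@MP and 6.52 ± 4.03 FPKM in NP-D@M (SD, n = 3 each), from 27 reads in NP-D@MP and 328 in NP-D@M. Its log2 fold change in NP-D@MP against NP-D@M was -2.17 (SE 0.31, adjusted p = 0.0578 by limma), which did not pass. Without D it averaged 0.305 FPKM in NP@M and 0.214 FPKM in PBS.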
